A study of Mus musculus with 2 samples.

Results

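The genes of miR-15a, miR-15b, miR-16 and miR-195a are 5 of the 2202 microRNA (miRNA) genes counted in these libraries, and they lie at 3 loci. They were taken by name (Mir15a, Mir16-1, Mir15b, Mir16-2 and Mir195a) from the GENCODE M21 annotation on mm10, and all 5 had counts in both libraries. The 2 small RNA sequencing libraries form 1 group: RNA of the left cerebral cortex, from B6CASTF1/J males (a hybrid of C57BL/6J and CAST/EiJ) at an age of 4 days. The labels call them biological replicates 1 and 2 and number the males differently, yet give the same donor identifier for both, so the spread between them may be partly technical. No treatment or genotype differs between the libraries, and the comparison is of 1 library with 1 library, with no replicate on either side. Values given as a pair are for the libraries labelled replicate 1 and replicate 2, in that order.

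miRNAs are short RNAs cut from a hairpin precursor. They pair with messenger RNAs mainly through the seed, bases 2 to 8 from the 5′ end, and lower the output of those messages. The miR-15/16 family is known for restraining the cell cycle and cell survival: its targets include cyclins of the D and E types, Cdk6, Wee1, Chek1 and Bcl2. MIR15A and MIR16-1 are lost together in many cases of chronic lymphocytic leukaemia. miR-195 is known for its rise in the heart after birth, when muscle cells of the heart stop dividing, and family members are broadly expressed, brain included.

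The sequences show why these genes are counted as a family and which of them share reads. Mature sequences are RefSeq's (GRCm38.p6), and capitals mark the seed. The 5 genes give 4 distinct 5p arms, each with the seed AGCAGCA.
miR-15a-5p (Mir15a): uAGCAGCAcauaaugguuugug
miR-15b-5p (Mir15b): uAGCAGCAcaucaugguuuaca
miR-16-5p (Mir16-1 and Mir16-2): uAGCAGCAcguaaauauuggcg
miR-195a-5p (Mir195a): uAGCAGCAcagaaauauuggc
miR-15a-5p and miR-15b-5p are identical at 18 of 22 positions, and counted from the 5′ end the differences are A12C, G20A, U21C and G22A (miR-15a first). miR-16-5p and miR-195a-5p are identical at 19 of the 21 positions they can be compared over, with G10A and U11G (miR-16 first). Hairpins of 4 of the 5 genes (not Mir15a) were matched among 1005 in RefSeq. miR-15b-5p and miR-195a-5p were each found in 1 hairpin and miR-16-5p in 2.

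Both Mir16 hairpins are printed because their counts rest on what they do not share. Capitals mark the longest run of bases common to both.
Mir16-1 (chr14:61631880-61631972, minus strand): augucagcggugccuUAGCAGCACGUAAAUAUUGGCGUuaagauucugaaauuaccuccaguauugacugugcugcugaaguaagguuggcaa
Mir16-2 (chr3:69009902-69009996, plus strand): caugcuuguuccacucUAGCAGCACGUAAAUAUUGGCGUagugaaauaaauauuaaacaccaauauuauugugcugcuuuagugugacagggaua
The run is 23 nt long and holds all 22 nt of miR-16-5p plus 1 nt after it. A read inside this run has both hairpins as a source, and the layout of the tables gives reads placed at several sites to no gene. Such reads were 46.1% and 39.8% of all reads, over all sequences, and how many were miR-16-5p was not analysed here. The counts of Mir16-1 and Mir16-2 below are therefore of reads that reach outside the run, such as those of the 3p arms, and say little about the level of miR-16-5p. No other pair of the 4 hairpins shared more than 12 nt.

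The loci differ in their hosts. Mir15a (ENSMUSG00000093007.1, chr14:61632027-61632110) lies in an intron of the noncoding RNA Dleu2, 54 bases from Mir16-1 (ENSMUSG00000092995.1), which overlaps an exon of a Dleu2 transcript. Mir15b (ENSMUSG00000065580.2, chr3:69009772-69009835) and Mir16-2 (ENSMUSG00000065606.1) are 66 bases apart in an intron of Smc4, a condensin subunit that compacts chromosomes for mitosis. Mir195a (ENSMUSG00000065411.2, chr11:70235042-70235135) overlaps no other gene of the annotation and lies 241 bases from Mir497, the gene of miR-497a. All 5 genes had 0 reads on the opposite strand, and their either-strand and own-strand counts were equal, so none of their counts was shared with an antisense miRNA gene.

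The libraries stand apart from each other, and the library labelled replicate 2 goes against its tissue label. Own-strand counts on miRNA genes totalled 2999032 and 3577964. Of 15 neuron-enriched genes, 11 were tested and 11 were lower in the library labelled replicate 2 (10 with TMM) by the exact binomial test given further on, and their summed share was 4.27% and 0.132% of counts. Mir124a-1, Mir124a-2, Mir124a-3 and Mir9-2 were at 0 there, with 8, 3, 1 and 7 counts in the other library. All 7 tested of 10 muscle genes and all 5 Hox cluster genes were higher, with summed shares of 0.00737% and 15.7% for muscle and of 0.0228% and 1.91% for Hox, and 6 muscle genes were at 0 in the library labelled replicate 1. The 3 vascular genes summed to 1.71% and 4.70%, and the 3 red blood cell genes to 0.00453% and 0.0153%. Among all tested genes 63.7% were called lower and 26.3% higher (39.3% and 40.6% with TMM). Whether the library labelled replicate 2 is of another tissue, of a mixture or of a mislabelled sample was not tested, so each mean ± SD below is over 2 libraries with a cortex label, not over 2 samples known to be cortex. In these tissue RNAs fewer cells of a type and less RNA per cell cannot be told apart, and the part of these markers in the results below was not tested.

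Summed over the 5 genes, the family held 8020 and 7367 counts, or 0.267% (exact 95% binomial interval 0.262 to 0.273) and 0.206% (0.201 to 0.211) of each library. In CPM, the count scaled to 1000000 own-strand counts, this is 2674 and 2059, with a mean of 2367 ± 435 (SD, n = 2). The library labelled replicate 2 was thus lower by 0.38 on the log2 scale (interval -0.42 to -0.33), a direction that turned to 1.03 higher with TMM scaling. These sums leave out reads inside the run shared by the Mir16 hairpins. Without Mir16-1 and Mir16-2, the other 3 genes summed to a log2 ratio of -0.16 (interval -0.21 to -0.11) with total counts and 1.24 with TMM. TMM centres the bulk of genes, where total counts give weight to the most abundant ones. It lies 1.40 above total counts (log2), and the median of all 463 tested genes (those with at least 10 counts over both libraries) was -1.67 with total counts and -0.27 with TMM. A read covers a whole miRNA, so counts were not divided by hairpin length. Ligation and amplification differ between sequences, so levels of different miRNAs are of reads, not molecules. Intervals cover counting error only.

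Mir15a, the chromosome 14 gene of miR-15a, was the only one of the 5 with a higher CPM in the library labelled replicate 2. It had 2206 and 3463 counts, or 736 (interval 705 to 767) and 968 (936 to 1001) CPM. The library labelled replicate 2 was the higher by 1.32-fold (1.25 to 1.39) with total counts, and also with TMM (log2 0.40 and 1.80).

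Mir16-1, its neighbour in the Dleu2 transcript, was lower in the library labelled replicate 2 under both scalings. It had 1259 and 417 counts, or 420 (397 to 444) and 117 (106 to 128) CPM. That is 3.60-fold lower (3.22 to 4.03), or log2 -1.85, and -0.45 with TMM. The neighbours thus went in opposite directions: Mir15a had 1.75 counts per count of Mir16-1 in one library and 8.30 in the other, a change of 4.74-fold (4.18 to 5.37) that no library scaling affects. Reads inside the run shared by both Mir16 hairpins are not in this ratio, as given above.

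Mir15b, the Smc4 gene of miR-15b, had 2221 and 1800 counts, or 741 (710 to 772) and 503 (480 to 527) CPM. It was lower by 1.47-fold (1.38 to 1.57) in the library labelled replicate 2 with total counts (log2 -0.56) but higher with TMM (0.85). Mir16-2, beside it, had 450 and 208 counts, or 150 (137 to 165) and 58.1 (50.5 to 66.6) CPM. It was 2.58-fold lower (2.19 to 3.06), log2 -1.37, and with TMM the value was 0.04, within counting error (exact binomial test, adjusted p = 0.787). Here too the miR-16 gene stood lower against its partner in the library labelled replicate 2: Mir15b had 4.94 counts per count of Mir16-2 in one library and 8.65 in the other, a change of 1.75-fold (1.47 to 2.10).

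Mir195a, which makes miR-195a, had 1884 and 1479 counts, or 628 (600 to 657) and 413 (393 to 435) CPM. It was 1.52-fold lower (1.42 to 1.63) in the library labelled replicate 2 with total counts, log2 -0.60, and higher with TMM, 0.80. Mir497 lies on the same strand and its mature miR-497a-5p carries the same seed, but with total counts it went the other way. It had 1202 and 2191 counts, or 401 (378 to 424) and 612 (587 to 639) CPM, higher by 1.53-fold (log2 0.61, and 2.02 with TMM). There were 1.57 counts of Mir195a per count of Mir497 under one label and 0.675 under the other, a ratio 2.32-fold lower (2.10 to 2.56).

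**Figure D1:**
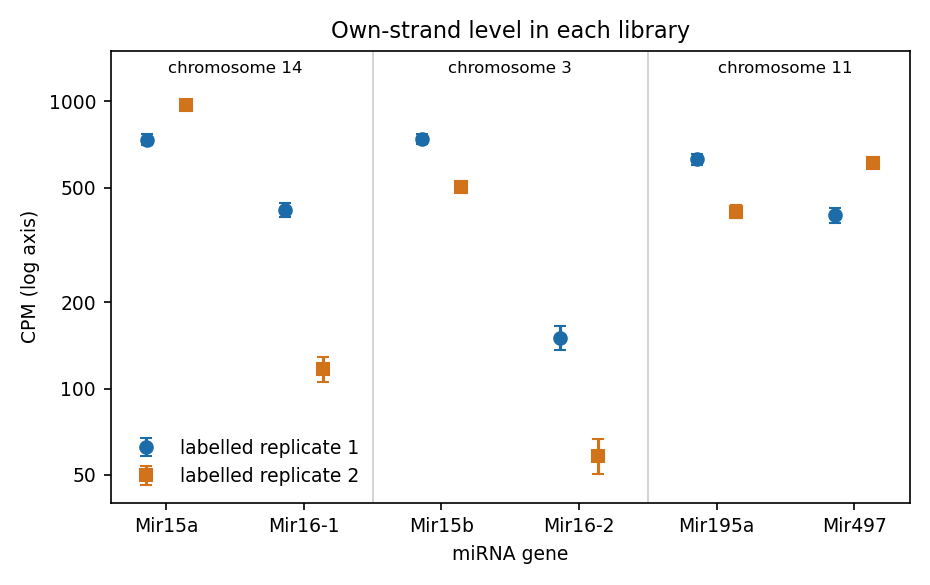
CPM of the 5 genes and of Mir497 in each library, on a log axis, grouped by chromosome; points are single libraries and bars exact 95% binomial intervals. Mir15a and Mir497 sit higher in the library labelled replicate 2, at 968 and 612 CPM with total counts, and the other 4 sit lower (with TMM scaling only Mir16-1 does).

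The order of the genes was nearly kept. In the library labelled replicate 1, Mir15b (741 CPM) and Mir15a (736) had overlapping intervals, followed by Mir195a (628), Mir16-1 (420) and Mir16-2 (150). In the library labelled replicate 2, Mir15a (968) led Mir15b (503), Mir195a (413), Mir16-1 (117) and Mir16-2 (58.1), with no overlap of counting intervals between neighbours. Over both libraries the means were 852 ± 164 for Mir15a, 622 ± 168 for Mir15b, 521 ± 152 for Mir195a, 268 ± 214 for Mir16-1 and 104 ± 65.0 for Mir16-2 (CPM, SD, n = 2). The means of Mir15b and Mir195a differed by less than the SD of either, though Mir15b was the higher in both libraries. Those of Mir16-1 and Mir16-2 differed by less than the SD of Mir16-1 but by more than that of Mir16-2, and Mir16-1 was the higher in both libraries. By these counts none of the genes was among the most abundant. Among the 2202 genes their ranks ran from 105 to 183 in one library and from 81 to 204 in the other. The ranks of Mir16-1 and Mir16-2 leave out reads inside the run that their hairpins share. They therefore cannot tell how abundant the mature miRNA made by both genes was.

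Among the 10 pairs of the 5 genes, the interval of the change in ratio included 1 for 1 pair, Mir15b and Mir195a. They had 1.18 (1.11 to 1.25) and 1.22 (1.14 to 1.30) counts of Mir15b per count of Mir195a, although they lie on different chromosomes. The Mir15a to Mir15b ratio was 0.993 (0.936 to 1.05) and 1.92 (1.82 to 2.04), a change of 1.94-fold (1.78 to 2.10). The Mir16 copies differed between the libraries by unlike amounts: the Mir16-1 to Mir16-2 ratio was 2.80 (2.51 to 3.12) and 2.00 (1.69 to 2.38), a 1.40-fold change (1.14 to 1.71). These ratios are within a library, so no scaling moves them, but they have no replicate.

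**Figure D2:**
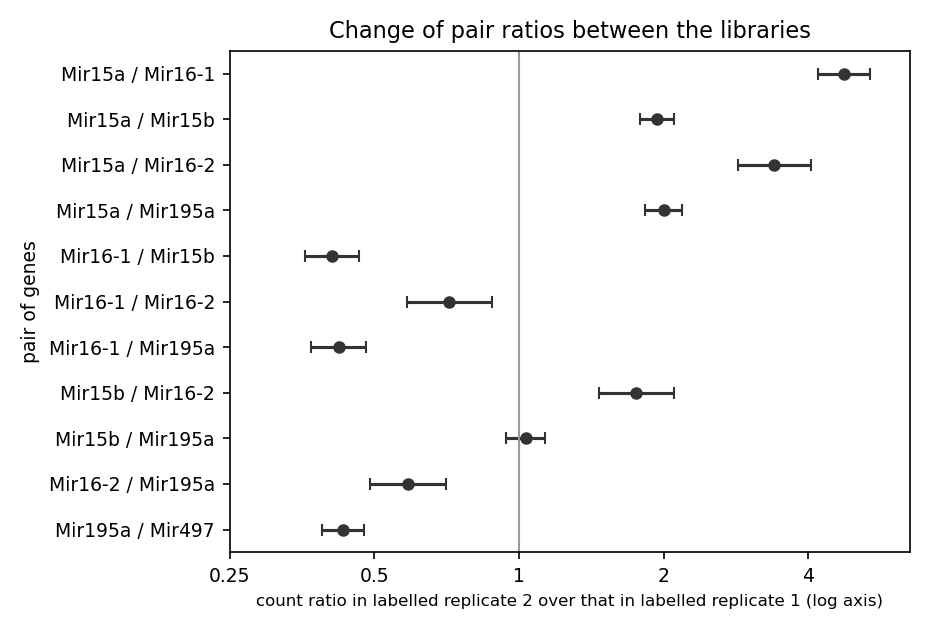
Change of the count ratio of each pair of genes between the libraries (the one labelled replicate 2 over the other), on a log axis, with exact 95% intervals; 1 means no change. Mir15a over Mir16-1 lies furthest to the right at 4.74, and Mir15b over Mir195a is the pair whose interval includes 1.

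By locus, the chromosome 14 pair held 43.2% (42.1 to 44.3) and 52.7% (51.5 to 53.8) of the family's counts. The chromosome 3 pair held 33.3% (32.3 to 34.3) and 27.3% (26.2 to 28.3), and Mir195a 23.5% and 20.1%. Without the Mir16 copies, whose reads are shared, Mir15a held 35.0% and 51.4%, Mir15b 35.2% and 26.7% and Mir195a 29.9% and 21.9%. By these counts the larger share of the chromosome 14 locus was in Mir15a, at 27.5% and 47.0% of the family. Mir16-1 held 15.7% and 5.66%. Reads inside the run shared by the Mir16 hairpins are in none of these shares, and leaving out the Mir16 genes does not bring them back. How the loci would compare with those reads was not analysed.

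These counts of calls are read against those over all miRNA genes. An exact binomial test, two-sided, was run on total counts (Benjamini-Hochberg adjusted over 463 genes with at least 10 counts summed, threshold 0.05). By it 1 of 5 was higher (Mir15a, adjusted p = 6.68e-24) and 4 were lower, where 26.3% of all tested genes were called higher and 63.7% lower. At least 2-fold lower were 2 of 5 (Mir16-1 and Mir16-2), where 57.9% of all genes were, and 0 of 5 were at least 2-fold higher, where 21.6% were. With TMM the test called 3 of 5 higher (all genes 40.6%) and 1 lower (39.3%). Counting error is the only error in this test, which sets 1 library against the other and not conditions. When the libraries were allowed a coefficient of variation of 0.4 (edgeR's exact negative binomial test with total counts), 0 of 5 passed, while 245 of the 463 genes did, and the smallest adjusted p among the 5 was 0.0587, for Mir16-1.

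Relative to the median tested gene, a measure that no scaling changes, 4 of 5 lay above it and Mir16-1 below. The log2 differences from that median were 2.07 for Mir15a, 1.11 for Mir15b, 1.07 for Mir195a, 0.30 for Mir16-2 and -0.18 for Mir16-1. Of the tested genes, 74.3% had a lower ratio than Mir15a, 62.9% than Mir15b, 62.6% than Mir195a, 52.9% than Mir16-2 and 46.4% than Mir16-1. The genes with a unique mature 5p arm thus held the top 3 places of the family. The median log2 ratio of the 5 was -0.60, beside -1.67 for all tested genes.

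**Figure D3:**
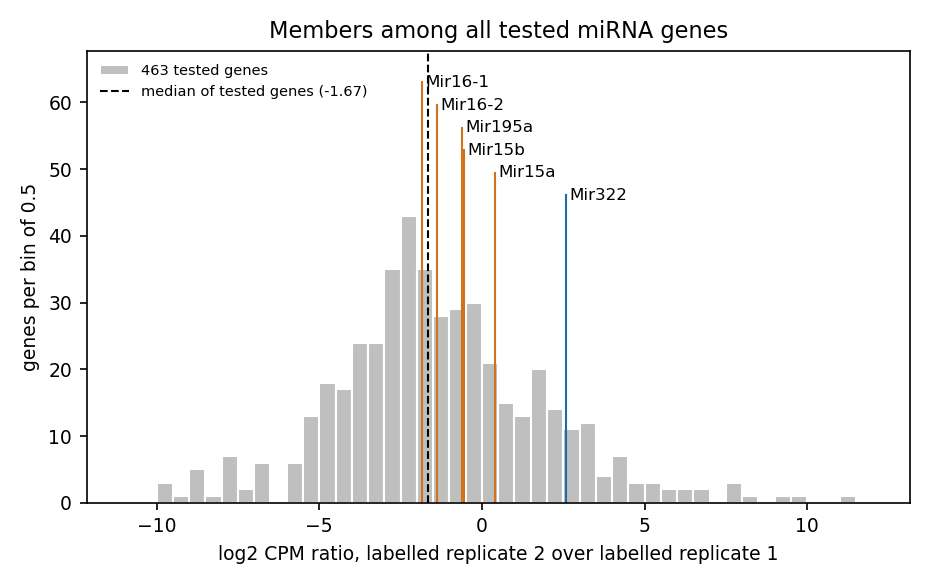
Histogram of the log2 CPM ratio between the libraries (total counts, bins of 0.5) for the 463 tested genes, with lines at the 5 family genes and at Mir322. The dashed line is the median of all tested genes, -1.67; the 5 genes lie between -1.85 and 0.40 and Mir322 at 2.58.

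Other genes of the seed show where the 5 stand within their family by sequence. Among 1738 mature miRNAs in RefSeq, those with the seed AGCAGCA come from 11 genes: the 5 described here and 6 others. Mir195b, Mir6342, Mir6353 and Mir6419 had 0 counts in both libraries, which allows up to 1.00 and 0.838 CPM. The remaining genes, Mir497 and Mir322, were both higher in the library labelled replicate 2, and they carry these 5p arms, with the seed in capitals.
miR-497a-5p (Mir497, chr11:70234717-70234800): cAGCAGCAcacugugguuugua
miR-322-5p (Mir322, chrX:53054255-53054349): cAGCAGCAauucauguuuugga
Both differ from miR-15a-5p at the first base (U1C) while keeping the seed. Mir322, the mouse counterpart of human miR-424 and a miRNA known from muscle differentiation, had 12134 and 86819 counts, or 4046 and 24265 CPM, higher by log2 2.58 with total counts (a fold of 5.88 to 6.11) and 3.99 with TMM.

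The family's share of the counts at genes with this seed therefore differed between the libraries. These are counts per gene, so they can hold reads of the 3p arms, which lack the seed. Reads of the arms were not told apart. The 5 genes held 37.6% (36.9 to 38.2) of the 21356 counts at these genes under one label. They held 7.64% (7.48 to 7.81) of the 96377 under the other. Mir322 held 56.8% (56.2 to 57.5) and 90.1% (89.9 to 90.3), and Mir497 5.63% and 2.27%. All genes of the seed together took 0.712% and 2.69% of counts, a 3.78-fold ratio, while the 5 genes alone took less. The reads of miR-16-5p that are given to neither copy are missing from all these shares. The muscle list was at 0.00737% and 15.7% in the same libraries, and its part in the Mir322 counts was not tested.

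**Figure D4:**
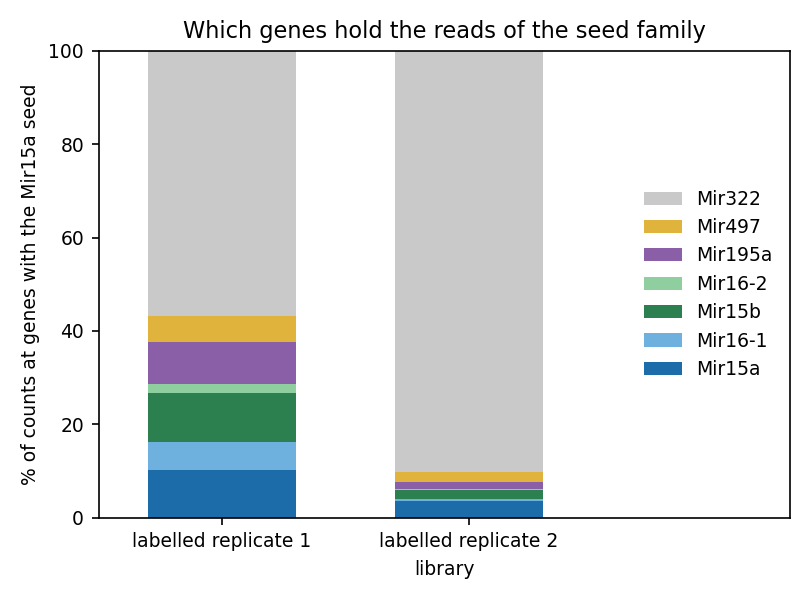
Stacked bars of the percent of counts at genes with the Mir15a seed, per library, by gene. Mir322 fills 56.8% of the left bar and 90.1% of the right, and the 5 family genes 37.6% and 7.64%.

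A wider group shares the first 6 bases of the seed, either at base 2, as here, or at base 1. It adds 4 genes, whose arms are shown because they hold another case of copies with the same mature sequence (capitals mark bases 2 to 8).
miR-503-5p (Mir503): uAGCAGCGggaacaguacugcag
miR-103-3p (Mir103-1 and Mir103-2): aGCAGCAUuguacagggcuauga
miR-107-3p (Mir107): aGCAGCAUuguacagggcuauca
Mir503, 200 bases from Mir322, had 321 and 2234 counts. With total counts it was 5.83-fold higher (5.19 to 6.58) in the library labelled replicate 2, and with TMM higher by log2 3.95. Mir107 had 8887 and 990 counts, 10.7-fold lower with total counts (log2 -3.42, and -2.02 with TMM). miR-103-3p and miR-107-3p differ only by G22C (miR-103 first), and the 2 genes of miR-103 had 17 and 10 counts (Mir103-1) and 96 and 73 (Mir103-2). As for miR-16, these counts leave out reads that both copies could give. Reads inside the 21 nt that miR-103-3p and miR-107-3p share have Mir107 and both Mir103 genes as a source. The Mir107 counts leave out such reads too.

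Other cell cycle clusters are given beside the 5 genes as description, with no test of a difference. The miR-17-92 genes, which promote proliferation, took 1.52% and 0.437% of counts, with a median log2 ratio of -1.44, and 5 of 6 were called lower and 0 higher (63.7% and 26.3% of all tested genes). Mir17 had 30006 and 8526 counts (log2 -2.07). The miR-106b-25 genes took 0.926% and 0.236%, with a median of 0.10, above the -0.60 of the 5 genes, and 2 of 3 were called higher and 1 lower. The gene called lower was Mir93, with 25213 and 4757 counts (log2 -2.66). With TMM, 3 of the 6 were called higher and 2 lower, and 2 of the 3 higher and 1 lower (40.6% and 39.3% of all tested genes). Mir20a (-1.66), Mir92-1 (-1.22), Mir18 (-0.89) and Mir106b (0.10) lay within the range of the 5 genes, -1.85 to 0.40. So did Mir19a (0.07, from 8 and 10 counts). Mir17, Mir93 and Mir19b-1 (-2.99, from 20 and 3 counts) lay below that range and Mir25 (0.82) above it.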

How the data were processed

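The authors deposited 1 table of raw read counts per miRNA gene for each library, in 3 columns read here as either strand, own strand and opposite strand; per the file headers deposited beside them, the assembly is mm10 and the annotation GENCODE M21. Neither aligner nor counter is given in the sources used here, and the table layout is that of STAR gene counts. Entries without a gene (unplaced, several sites, no feature) were 70.1% and 47.4% of reads on the own strand and stayed out of library sizes. All 2202 identifiers matched GENCODE M21, and Mir497 is its symbol for miR-497a. Own-strand totals of 2999032 and 3577964 counts were the library sizes of CPM. Library ratios carry exact Clopper-Pearson intervals and an exact binomial test; a count of 0 was set to 3 counts in ratios of other genes. Pair ratios carry Fisher's exact conditional intervals, with no p. No quasi-likelihood fit was made, since neither side has a replicate. Alternatives were TMM (edgeR), DESeq2 size factors, the either-strand column, totals without Mirlet7i and Mir206, other filters and folds, and an edgeR exact test. The test was checked on data with known changes. Members and gene lists were chosen with earlier results of these data known. The text names the 5 members, relatives by seed with at least 10 counts, and the 3 genes nearest in ratio to the summed family among those with at least 1183 mean CPM, 0.5 of the family's; Mir503, Mir107, Mir103-1, Mir103-2, Mir17 and Mir93 come from planned lists. Mir18a, Mir92a-1 and Mir486a are Mir18, Mir92-1 and Mir486 in M21. No genome sequence was used, so sites outside RefSeq hairpins were not searched. Scaling used edgeR 4.0.16 and DESeq2 1.42.0 (R 4.3.3); tests used scipy 1.17.1 and tables pandas 2.3.3 (Python 3.11.15).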

Additional observations from a re-analysis of the deposited data

Results flagged for a closer look

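Mir497b, annotated on the strand opposite to Mir497 beside Mir195a, had 1202 and 2191 opposite-strand counts (libraries labelled replicate 1 and replicate 2). The comparisons do not use that column, where a floor of 3 counts stands for a count of 0. These opposite-strand counts equal the own-strand counts of Mir497 in each library, and in the either-strand column both genes had 0 counts. Own-strand counts of Mir497b were 0 in both.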

How the results depend on the processing

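No paired analysis was possible because there is 1 group. Scaling turned the sign of 4 of the 8 ratios between libraries. For Mir16-2 the TMM value was within counting error (exact binomial test, adjusted p = 0.787). With TMM and with DESeq2 size factors the log2 ratio of the summed family turned from -0.38 to 1.03 and 1.17, that of Mir15b to 0.85 and 0.99, that of Mir195a to 0.80 and 0.95 and that of Mir16-2 to 0.036 and 0.18; Mir15a, Mir497 and Mir322 stayed higher and Mir16-1 lower. With the either-strand column the summed ratio was -0.28, and with totals that leave out Mirlet7i and Mir206 it was -0.19. Genes past 2-fold numbered 368 with total counts, and 226 with a minimum of 100 counts. Genes called numbered 417 by the binomial test and 245 by the negative binomial exact test. Without the Mir16 copies the shares of the family were 35.0% and 51.4% for the Mir15a locus, 35.2% for the Mir15b locus in the library labelled replicate 1, and 29.9% and 21.9% for Mir195a; the locus shares lose a Mir16 gene, and the total is smaller for all. With 2 libraries, 1 library always lies within 1 SD of the mean, so leaving 1 out says nothing on stability (summed family 2059 and 2674 CPM), and the comparisons between libraries need both. Of the 59 other recomputed values, 42 kept their direction and their side of the threshold or stayed within their error. The planned search of genome sites was not run, and the either-strand column gave no value for Mir497, at 0 there. A count of 450 or 208, as for Mir16-2, gives the widest interval of the 5 on the log2 scale.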

Other observations

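Among the 94 other genes with at least 1183 mean CPM, those with a ratio between the libraries nearest to that of the summed family (log2 -0.38) were Mir433, Mir98 and Mir30e. Mir433, of the imprinted Dlk1-Dio3 region, had 28240 and 25968 counts (log2 -0.38). Mir98, a let-7 relative, had 15558 and 14367 (-0.37), and Mir30e had 9832 and 8664 (-0.44). Likeness here is the difference in 1 ratio over 2 libraries, and TMM moves all of these genes to the same extent.

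With total counts, the pair on chromosome 11 summed to nearly the same level in both libraries, 1029 and 1026 CPM. Its genes went opposite ways by that scaling, Mir195a at 628 and 413 CPM and Mir497 at 401 and 612. The pair on chromosome 14 summed to 1155 and 1084 CPM. The Smc4 pair summed to 891 and 561 CPM. With TMM each of these sums was higher in the library labelled replicate 2, by log2 1.40 (chromosome 11), 1.31 (chromosome 14) and 0.74 (Smc4). The chromosome 11 sum was chosen after its values were seen. Pairs are for the libraries labelled replicate 1 and replicate 2, in that order.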
